A study of Homo sapiens with 6 samples.

Results

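A set of 10 genes that hold sister chromatids together and release them at anaphase were followed in MDA-MB-231 cells, a triple-negative breast cancer line, after 12 h of dinaciclib, a small molecule inhibitor of several cyclin-dependent kinases. These were separase (ESPL1), securin (PTTG1), the cohesin subunits RAD21, SMC1A, SMC3, STAG1 and STAG2, the anaphase-promoting complex activators CDC20 and FZR1, and the ubiquitin-conjugating enzyme UBE2C. They were chosen by name, with earlier results of these data known. Every probe set that the platform's annotation gives to one of them alone was taken. A probe set is a group of short probes read as 1 value. This gave 21 probe sets of the 22215 on the array that are not controls, with at least 1 for each of the 10 genes. The dinaciclib group is 3 samples, named F, 4 and 5, of cells kept for 12 h in medium with the drug, which had been dissolved in DMSO. The baseline group is 3 samples, named E, 4 and 5, harvested at 0 h. All samples were total RNA of the same line, grown in RPMI medium with serum and antibiotics. The labels give no dose, and there is no 12 h group without drug, so drug, solvent and time in culture cannot be told apart. Nothing says that the samples of a group were separate cultures, so every p-value rests on a spread that may be technical.

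Cohesin is a ring of SMC1A, SMC3 and the kleisin RAD21, with STAG1 or STAG2 bound to it, that holds the sister chromatids of each chromosome together from S phase to anaphase. Separase is the protease that cuts RAD21, and securin keeps it inactive until the anaphase-promoting complex (APC/C), a ubiquitin ligase, marks securin and cyclin B for destruction. CDC20 activates the APC/C in mitosis and FZR1, also called CDH1, activates it from late mitosis through G1, while UBE2C places the first ubiquitins. Several of these genes are transcribed mainly in G2 and mitosis, and the arrays measured messenger RNA only. In bulk RNA, fewer cells in those phases and less RNA per cell cannot be told apart.

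The arrays of the dinaciclib group were dimmer than those of the baseline group, with median intensities of 40.6 to 46.8 against 53.3 to 66.2, and the median probe set had a log2 change of -0.21 as deposited. Both samples named with a letter stood apart, since their 5-prime control for 18S ribosomal RNA read 1155 (dinaciclib F) and 736 (baseline E), while the 4 numbered samples read 8273 to 9061. Results are therefore also given for the numbered samples alone. All 7 markers of the line, among them vimentin (VIM) and CD44, were above the median signal of the array. Of 8 markers of luminal or receptor-positive breast cells, the estrogen receptor gene ESR1, PGR, CDH1 and FOXA1 were below it. ERBB2, EPCAM, GATA3 and KRT19 were above it. The marker CDH1 is the gene of E-cadherin, a different gene from FZR1. The summed signal of those 8 markers was 1405 to 1921 in dinaciclib samples and 3060 to 3845 in baseline samples. KRT19 made up most of that difference (849 to 1279 in dinaciclib, 2371 to 3004 in baseline). ERBB2 (60.6 to 87.0 against 157 to 175) and ESR1 (11.5 to 18.1 against 21.1 to 33.6) were also lower without overlap. EPCAM, GATA3, FOXA1, PGR and CDH1 overlapped between groups. Of the markers of the line, EGFR (152 to 223 in dinaciclib, 554 to 1273 in baseline) and CD44 (3411 to 4002 against 4843 to 5525) were lower without overlap. VIM, CAV1, MSN, PLAUR and AXL overlapped. The part of these markers in the results below was not tested.

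Separase and CDC20 transcripts fell most among the members. Of the 21 probe sets, 5 fell, 0 rose and the other 16 were not called (limma on log2(value + 1), Benjamini-Hochberg adjusted p under 0.05 over all 22215 probe sets), and at an unadjusted p under 0.05 the counts were 8 lower and 1 higher. The falls were on both probe sets of ESPL1, the single probe set of CDC20, 1 of 2 of STAG1 and 1 of 3 of SMC3. Over all probe sets 13.4% were called lower and 3.86% higher, and among the members 23.8% were called lower and 0% higher. These shares are not matched for brightness, since 17 of the 21 lay above the median signal of all probe sets. With probe sets under the 40th percentile of mean signal left out, 30% of all were called lower and 9.51% higher. Of the 21, 7 were then lower and 1 higher. The comparison of overlap that follows was not repeated in this way. Values of the groups did not overlap in 11 of the 21 probe sets, 10 of them lower and 1 higher in dinaciclib, against 36.6% of all probe sets (26.5% lower and 10.1% higher). The median log2 change of the 21 was -0.32, beside -0.21 for all probe sets. PTTG1, RAD21, SMC1A, STAG2, FZR1 and UBE2C had no probe set past the threshold as deposited.

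**Figure D1:**
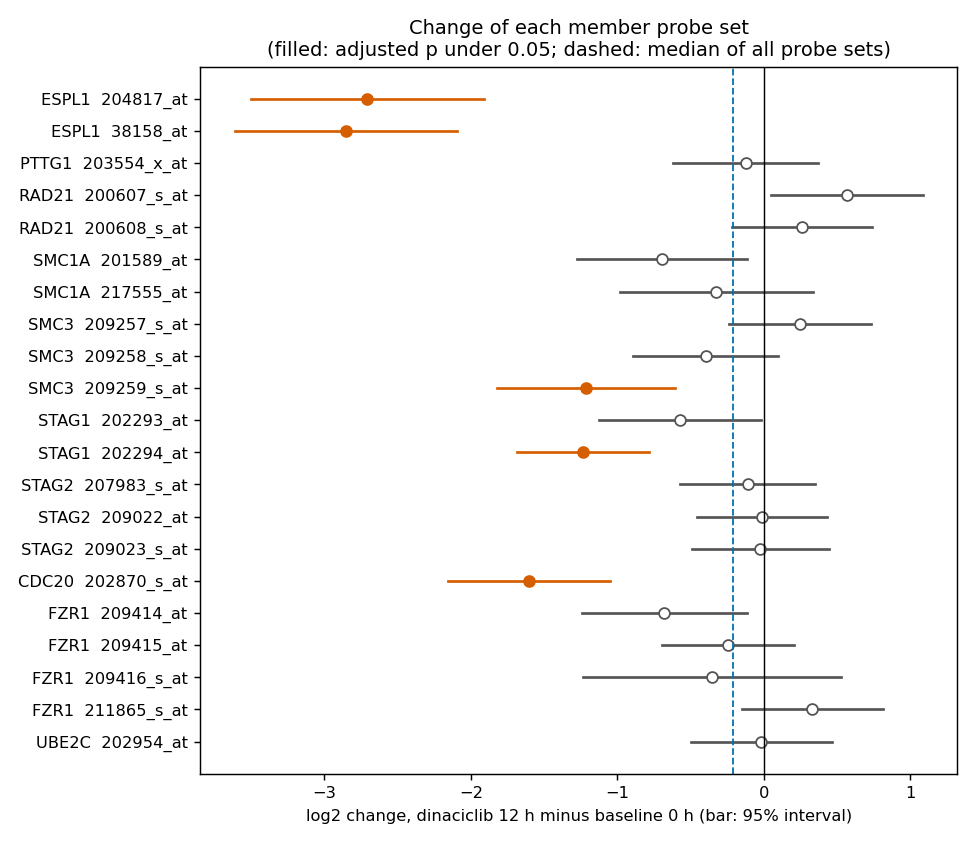
Log2 change (dinaciclib 12 h minus baseline 0 h) of each of the 21 probe sets, on the log2(value + 1) scale, with bars for the 95% interval, filled points for an adjusted p under 0.05 and a dashed line at the median of all probe sets (-0.21). The 5 filled points, those of ESPL1, CDC20, STAG1 and SMC3, lie at -1.22 or lower.

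Promoter sequences of the pair of genes with the largest falls are shown because both hold, close to the start of transcription, letters known from genes expressed in G2 and mitosis. They come from the RefSeq promoter table of the build GRCh38.p14, on the plus strand, and each gives the 110 bases just before the annotated start, 5′ to 3′. Capitals mark TTTGAA, the core of the cell cycle genes homology region, and CCAAT, the box bound by NF-Y, on either strand (ATTGG is CCAAT read on the other strand). The ESPL1 stretch lies at chr12:53268189-53268298 and the CDC20 stretch at chr1:43358871-43358980.
ESPL1: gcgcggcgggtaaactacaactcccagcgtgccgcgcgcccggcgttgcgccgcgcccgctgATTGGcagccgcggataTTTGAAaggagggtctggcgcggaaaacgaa
CDC20: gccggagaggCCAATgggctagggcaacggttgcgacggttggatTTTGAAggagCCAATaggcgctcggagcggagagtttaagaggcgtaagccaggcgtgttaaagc

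In ESPL1, ATTGG began 48 bases and TTTGAA 31 bases before the start. In CDC20, TTTGAA began 65 bases before the start and CCAAT 100 and 55 bases before it, and the reverse TTCAAA, outside the stretch shown, 178 bases before it. The motifs were searched in windows from 250 bases before to 50 after each start, of which the table held 13 for 8 of the 10 genes; RAD21 and UBE2C had none used here. TTTGAA or its reverse TTCAAA was found in windows of 4 genes (CDC20, ESPL1, FZR1 and SMC3) and in 15.2% of all 35116 windows. CCAAT or ATTGG was found in windows of 5 genes (CDC20, ESPL1, PTTG1, STAG1 and STAG2) and in 34.6% of all windows. CDC20 and ESPL1 were the 2 of these 8 genes with both motifs in a window, which 5.9% of all windows had. These shares count windows and not genes. Counted likewise, 4 of the 13 member windows held the TTTGAA motif, 7 the CCAAT motif and 2 both. A match is a description of letters and not a site of binding.

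Separase was the most lowered member. Its brighter probe set, 38158_at, read 105, 67.6 and 47.4 in dinaciclib F, 4 and 5, against 479, 557 and 495 in baseline E, 4 and 5. All 3 dinaciclib values lay below all baseline values, with F the highest of the 3. The mean was 73.3 ± 29.2 after dinaciclib and 511 ± 41.3 at baseline (SD, n = 3 each), a log2 change of -2.86 (SE 0.31), or 7.24-fold lower (limma adjusted p = 0.00454). Only 116 of the 22215 probe sets (0.522%) had a lower change. The other probe set, 204817_at, read 82.9, 70.8 and 37.3 in dinaciclib F, 4 and 5, against 447, 379 and 376 in baseline E, 4 and 5. Its log2 change was -2.71 (SE 0.33, limma adjusted p = 0.00546), again with no overlap. Relative to the median probe set the 2 changes were -2.65 and -2.50. Within the numbered samples they were -3.19 (adjusted p = 0.0367) and -2.85 (adjusted p = 0.0408), and F lay below E by a difference of -2.18 and -2.42, with 1 sample each and no test. The changes of the 2 probe sets differed by 0.15 (95% interval -0.37 to 0.67), which did not pass the test.

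Securin, the inhibitor of separase, had 1 probe set, 203554_x_at, whose suffix marks probes that can also bind other transcripts. PTTG1 has near-identical relatives in the genome, so its value is uncertain in that respect. It read 5089, 6120 and 5837 in dinaciclib F, 4 and 5, against 5256, 7024 and 6396 in baseline E, 4 and 5. The groups overlapped, and the log2 change of -0.13 (95% interval -0.62 to 0.37) was not called (limma adjusted p = 0.742). Median centring of the arrays turned its sign (0.33), still without a call.

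**Figure D2:**
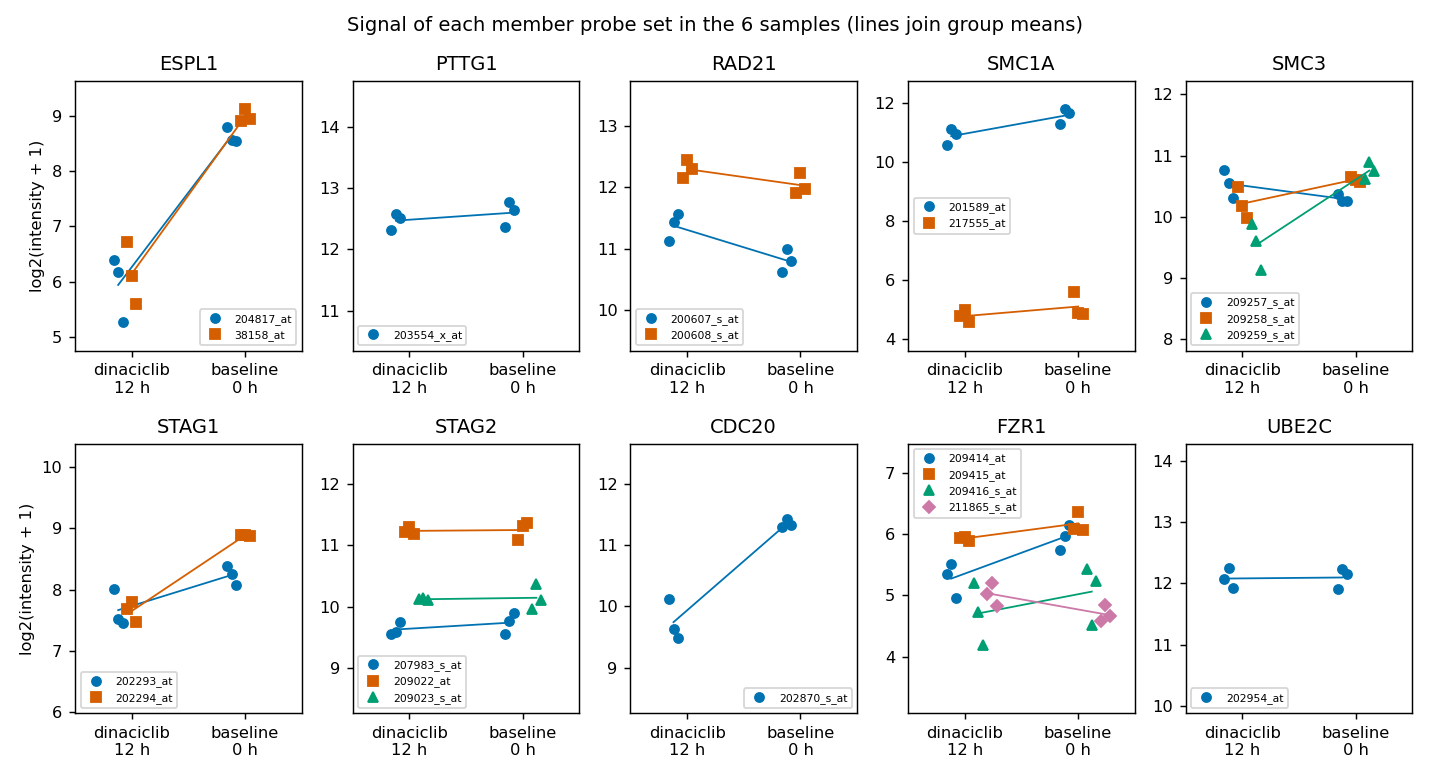
Signal of every member probe set, as log2(intensity + 1), in the 3 dinaciclib 12 h samples (left) and the 3 baseline 0 h samples (right), with a marker for each probe set and a line joining the group means. Every probe set of ESPL1, CDC20 and STAG1 lies lower in all dinaciclib samples than in any baseline sample. So do SMC1A 201589_at, SMC3 209258_s_at and 209259_s_at, and FZR1 209414_at and 209415_at. The probe sets of PTTG1, STAG2 and UBE2C overlap between groups.

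RAD21, the cohesin subunit that separase cuts, was bright, and neither of its probe sets passed as deposited. The probe set 200607_s_at read 2243, 2754 and 3020 in dinaciclib F, 4 and 5, against 1578, 2048 and 1773 in baseline E, 4 and 5. All dinaciclib values lay above the baseline values, the 1 member probe set of which this was so. The log2 change was 0.57 (95% interval 0.05 to 1.09, limma adjusted p = 0.132). It passed as raised with log2(value + 16) (adjusted p = 0.0481), without dim probe sets (0.0473), with a variance trend and robust estimation (0.0314) and under median centring (1.02, adjusted p = 0.0135), and over all 16 alternatives the adjusted p ran from 0.0135 to 0.301. The other, 200608_s_at, had means of 5051 ± 506 after dinaciclib and 4219 ± 513 at baseline (SD, n = 3 each), a log2 change of 0.26 (95% interval -0.22 to 0.74, adjusted p = 0.443), and the groups overlapped. It passed under median centring alone (0.71, adjusted p = 0.0186), and over its 17 alternatives the adjusted p ran from 0.0186 to 0.748.

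SMC1A is one of the long arms of the ring. Its bright probe set 201589_at read 1535, 2202 and 1966 in dinaciclib F, 4 and 5, against 2480, 3539 and 3218 in baseline E, 4 and 5. The groups did not overlap, and within each group the sample named with a letter was the lowest. The log2 change was -0.70 (95% interval -1.28 to -0.11) and was not called (limma adjusted p = 0.106). It passed as lowered in 6 of 17 alternatives, among them quantile normalization (-0.77, adjusted p = 0.013) and letter or number as a covariate (adjusted p = 0.0308), and over all 17 the adjusted p ran from 0.013 to 0.374. The dim probe set 217555_at averaged 26.5 ± 3.96 after dinaciclib and 34.3 ± 10.9 at baseline (SD, n = 3 each), and did not pass.

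SMC3, the partner of SMC1A in the ring, had 3 probe sets of similar brightness, of which 1 was called lower and 2 were not called. The probe set 209259_s_at read 940, 781 and 559 in dinaciclib F, 4 and 5, against 1570, 1914 and 1717 in baseline E, 4 and 5. Its log2 change was -1.22 (SE 0.25, limma adjusted p = 0.0231), or -1.01 relative to the median probe set. The call ended without dinaciclib 4 (adjusted p = 0.0645), without dinaciclib 5 (0.0572), without baseline 4 (0.0843), without baseline 5 (0.0788) and within the numbered samples (-1.45, adjusted p = 0.0532), while F minus E was -0.74.

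The probe set 209258_s_at of SMC3 read 1430, 1162 and 1011 in dinaciclib F, 4 and 5, against 1611, 1558 and 1527 in baseline E, 4 and 5. These values did not overlap either, but the log2 change of -0.40 (95% interval -0.89 to 0.10) did not pass (adjusted p = 0.257). The third, 209257_s_at, read 1737, 1502 and 1267 in dinaciclib F, 4 and 5, against 1323, 1223 and 1222 in baseline E, 4 and 5, with a log2 change of 0.25 (95% interval -0.24 to 0.73, adjusted p = 0.477). It passed as raised under median centring alone (0.70, adjusted p = 0.0453), and over its 17 alternatives the adjusted p ran from 0.0453 to 0.792.

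Whether SMC3 probe sets changed differently from the brightest, 209257_s_at, was tested as the difference of log2 values within each array. A shift of a whole array does not alter that difference except through the added 1. The probe sets 209258_s_at and 209259_s_at were not set against each other. Against 209257_s_at, 209259_s_at changed by a difference of -1.46 (SE 0.18, limma adjusted p = 0.0121) and 209258_s_at by -0.64 (SE 0.13, adjusted p = 0.0463). In both pairs the 3 dinaciclib arrays lay below the 3 baseline arrays. Among 7101 such pairs of probe sets of 1 gene, 8.24% were called. The first call ended without dinaciclib 4 (0.0537), baseline 4 (0.0556) or baseline 5 (0.0592), and the second whichever sample was left out (adjusted p 0.101 to 0.161). Which SMC3 transcripts each probe set reads was not analysed here.

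STAG1 and STAG2 are alternative subunits that bind the ring. STAG1 probe set 202294_at read 204, 223 and 177 in dinaciclib F, 4 and 5, against 477, 476 and 467 in baseline E, 4 and 5. The baseline values were nearly equal and all dinaciclib values were below them. The log2 change was -1.23 (SE 0.19, limma adjusted p = 0.00915), or 2.35-fold lower, and -1.03 relative to the median probe set. Within the numbered samples it was -1.24 (adjusted p = 0.0514), and F minus E was -1.22. The other STAG1 probe set, 202293_at, read 258, 183 and 176 in dinaciclib F, 4 and 5, against 332, 305 and 270 in baseline E, 4 and 5. Its groups did not overlap, but its log2 change of -0.57 (95% interval -1.13 to -0.02) did not pass (adjusted p = 0.151).

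The 3 probe sets of STAG2 had log2 changes of -0.01 (209022_at), -0.02 (209023_s_at) and -0.11 (207983_s_at), and none passed. The brightest, 209022_at, read 2371, 2520 and 2338 in dinaciclib F, 4 and 5, against 2166, 2536 and 2621 in baseline E, 4 and 5. Its groups overlapped and the 95% interval was -0.46 to 0.43. All 3 turned positive under median centring (0.34 to 0.44) without a call.

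Of the APC/C activators, CDC20 fell. Its probe set 202870_s_at read 1106, 792 and 712 in dinaciclib F, 4 and 5, against 2502, 2748 and 2565 in baseline E, 4 and 5. The highest dinaciclib value, that of F, was below the lowest baseline value. The mean was 870 ± 208 after dinaciclib and 2605 ± 128 at baseline (SD, n = 3 each), a log2 change of -1.61 (SE 0.23), or 3.04-fold lower (limma adjusted p = 0.00782). Relative to the median probe set it was -1.40, and 6.18% of all probe sets had a lower change. Within the numbered samples it was -1.82 (adjusted p = 0.0367), and F minus E was -1.18.

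FZR1, the other activator, was dim on all 4 probe sets, with mean intensities of 26.2 to 60.0 after dinaciclib and 24.9 to 71.6 at baseline, and none passed as deposited. On the brightest, 209415_at, it read 60.2, 61.2 and 58.5 in dinaciclib F, 4 and 5, against 67.2, 81.5 and 66.1 in baseline E, 4 and 5. These values did not overlap between groups. The log2 change of 209415_at was -0.25 (95% interval -0.69 to 0.20, adjusted p = 0.443), and its sign turned after quantile normalization (0.24) and median centring (0.21). The probe set 209414_at had a log2 change of -0.68 (95% interval -1.24 to -0.11, adjusted p = 0.104) and no overlap between groups. It passed as lowered without dim probe sets (adjusted p = 0.0291) and with arrays centred on hybridization controls (-0.78, adjusted p = 0.0414), and over its 16 alternatives the adjusted p ran from 0.0291 to 0.381. The probe set 211865_s_at had one of 0.33 (95% interval -0.15 to 0.81, adjusted p = 0.333) and passed as raised after quantile normalization (0.64, adjusted p = 0.0188) and median centring (0.78, adjusted p = 0.0122), over 16 alternatives with adjusted p from 0.0122 to 0.666. The last, 209416_s_at, had a log2 change of -0.36 (95% interval -1.24 to 0.53).

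UBE2C, the enzyme that works with the APC/C, was brighter than 97.5% of probe sets. It read 4297, 4850 and 3872 in dinaciclib F, 4 and 5, against 3846, 4790 and 4536 in baseline E, 4 and 5. The groups overlapped throughout, and the log2 change was -0.02 (95% interval -0.50 to 0.46, limma adjusted p = 0.971). Median centring gave 0.43 without a call.

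Members with related roles changed by different amounts within the same arrays. For 6 pairs of members, picked after their values were seen, the brightest probe sets were compared by the same within-array difference and in the same fit as the pairs of probe sets of 1 gene, so these pairs are a description of known values with an error and not independent evidence. ESPL1 changed by -2.73 relative to PTTG1 (SE 0.36, limma adjusted p = 0.0148). CDC20 changed by -1.59 relative to UBE2C (SE 0.22, adjusted p = 0.0159) and by -1.36 relative to FZR1 (SE 0.21, adjusted p = 0.0206). In each of these 3 pairs the 3 dinaciclib arrays lay below the 3 baseline arrays. The FZR1 value rests on the dim 209415_at alone. The other FZR1 probe sets, with log2 changes of -0.68, -0.36 and 0.33, were not set against CDC20. The PTTG1 value rests on 203554_x_at, whose probes can also bind other transcripts.

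Among the cohesin subunits, 2 of 3 such pairs passed with all 6 samples. STAG1 changed by -1.22 relative to STAG2 (SE 0.16, adjusted p = 0.0148) and SMC1A by -0.96 relative to RAD21 (SE 0.16, adjusted p = 0.0265). The STAG1 value rests on 202294_at alone. The other STAG1 probe set, 202293_at, had a smaller change (-0.57), was not called and was not set against STAG2. SMC1A relative to SMC3 gave -0.94 (SE 0.30, adjusted p = 0.144) and did not pass, on the SMC3 probe set with the positive change. With 5 samples most of these calls ended. STAG1 against STAG2 did not pass without dinaciclib 4 or 5 or baseline 4 or 5 (adjusted p 0.0520 to 0.0659), and ESPL1 against PTTG1 without dinaciclib 4 or any baseline sample (0.0521 to 0.0654). CDC20 against UBE2C (0.0548 to 0.0682) and against FZR1 (0.0673 to 0.0813) passed only without dinaciclib F, and SMC1A against RAD21 in no such fit (0.0566 to 0.106). All kept their direction, with ESPL1 against PTTG1 at -2.44 or lower and SMC1A against RAD21 at -0.88 or lower.

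**Figure D3:**
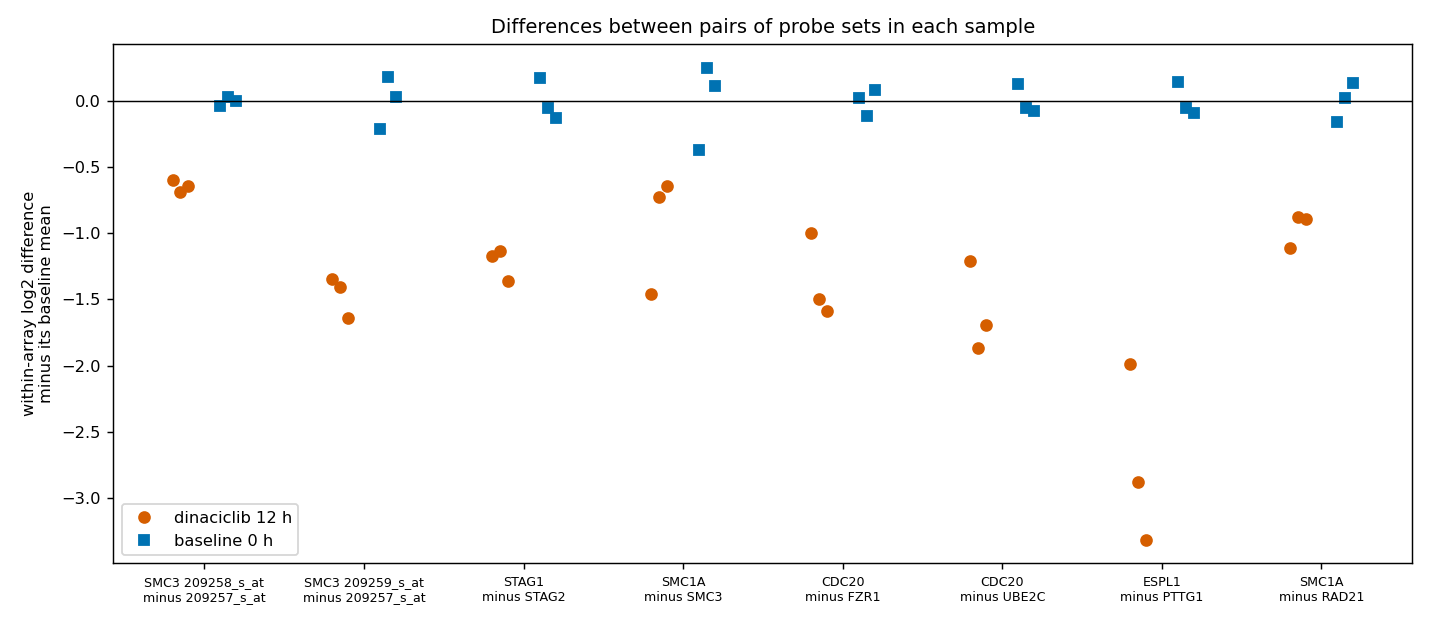
Within-array log2 difference between the probe sets of each pair, minus its baseline mean, in the 3 dinaciclib 12 h samples (circles, left) and the 3 baseline 0 h samples (squares, right). In all 8 pairs shown the dinaciclib samples lie below the baseline samples, and ESPL1 minus PTTG1 spans -3.32 to -1.99 after dinaciclib.

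Around these members, 62 of 79 further genes in 5 lists were measured, each read by its brightest probe set in the same fit. The lists too were chosen with earlier results of these data known. Of the 62, 19 fell, 1 rose and 42 did not pass, which is 30.6% lower and 1.61% higher, beside 15.8% lower and 3.32% higher over all 11963 genes. Of 18 APC/C substrates, counted with the chain-extending enzyme UBE2S, 10 fell and 0 rose, with a median log2 change of -0.89 against -0.26 for all genes. AURKB, a kinase of the chromosomal passenger complex, averaged 80.2 ± 16.5 after dinaciclib and 442 ± 28.9 at baseline (SD, n = 3 each), a log2 change of -2.47 (SE 0.22, adjusted p = 0.00322). CDCA3, a mitotic entry factor (-1.72), and CCNB1, the cyclin that CDC20 directs to destruction (-1.56), followed. The other 7 that fell were RRM2, CDC6, PLK1, NEK2, CCNA2, UBE2S and NUSAP1.

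Of 13 measured spindle assembly checkpoint genes and APC/C inhibitors, 4 fell and 0 rose, with a median of -0.25. KNTC1, a subunit of the kinetochore complex with ZW10, averaged 137 ± 14.6 after dinaciclib and 514 ± 45.7 at baseline (SD, n = 3 each), a log2 change of -1.90 (SE 0.19, adjusted p = 0.00399). BUB1B, the checkpoint protein BubR1 that binds CDC20 (-1.51), MAD1L1 (-1.44) and BUB1 (-0.90) fell too, BUB1 on 1 of its 5 probe sets. MAD2L1, the inhibitor of CDC20, had a log2 change of -0.21 and did not pass.

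Of 8 measured APC/C subunits, ANAPC2, the cullin subunit, fell (-1.24, SE 0.22, adjusted p = 0.0142), 0 rose and 7 did not pass, with a median of -0.37. Its mean intensity was 26.6 ± 4.68 after dinaciclib and 64.2 ± 8.39 at baseline (SD, n = 3 each). Of 11 cohesin regulators and related genes, 3 fell on their brightest probe sets, 0 rose, and the median was 0.02. Those that fell were MAU2, which loads cohesin with NIPBL (-1.44, SE 0.21, adjusted p = 0.0085), PDS5A (-0.79) and SMC6 (-0.79). SMC6 is part of a separate complex with SMC5 and not of cohesin. PDS5A went both ways, since 2 of its 4 probe sets were called higher, with log2 changes of 2.88 and 2.71 (adjusted p = 0.00293 and 0.00307). The brightest probe sets of NIPBL (0.24) and of WAPL, which opens the ring (0.25), did not pass. Of 12 phosphatase genes of mitotic exit, CDC14B fell (-0.80, on 1 of 5 probe sets) and PPP2CA, a catalytic subunit of protein phosphatase 2A, rose (0.68), with a median of -0.10. Reading only the brightest probe set left out calls on dimmer ones of 7 genes counted here as not passing. These were lower for 1 probe set each of WAPL (-1.78), PDS5B (-0.96), CDC27 (-1.84) and ENSA (-1.52), higher for 2 of ARPP19 (2.44 and 2.12) and 1 of CDC14A (0.85), and in both directions for PPP2R5C.

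The list counts depended on scaling and on single samples. Lowered genes in all lists numbered 19 after quantile normalization, 9 under median centring and 12 with arrays centred on spiked controls, and raised genes 3, 10 and 0. Without dinaciclib F, 4 or 5 or baseline 4 or 5, 12, 8, 10, 9 and 8 genes fell. The APC/C substrates had 12 falls, 5 falls and 7 falls under the 3 scalings, with 0, 2 and 0 rises. Over all probe sets, 77.6% of calls were falls as deposited, 52.3% after quantile normalization, 35.7% under median centring and 82.3% on spiked controls. The lower calls behind these shares numbered 2971, 2338, 1938 and 2418, and the higher calls 857, 2130, 3487 and 520. Among the list genes, TTTGAA and CCAAT on either strand, in the 250 bases before a start, were both found, in 1 window or in different ones, for 1 of 18 lowered genes with a window (PLK1) and for 5 of 35 that did not pass.

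**Figure D4:**
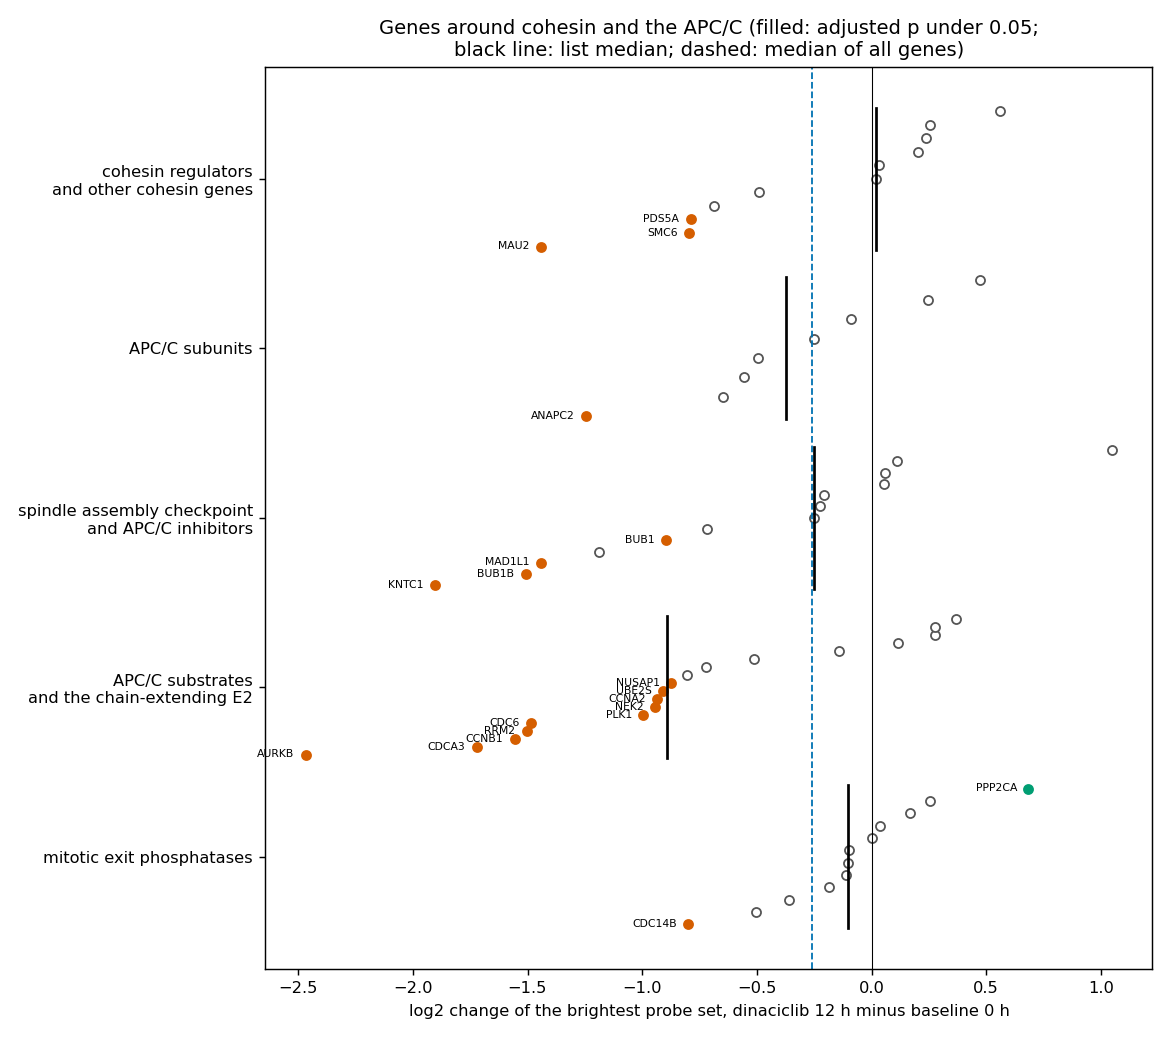
Log2 change of the brightest probe set (dinaciclib 12 h minus baseline 0 h) for the 62 measured genes of 5 lists, with filled points for an adjusted p under 0.05, a black line at each list's median and a dashed line at the median of all genes (-0.26). The APC/C substrates have the lowest of the 5 medians, -0.89, and AURKB the lowest change, -2.47.

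The 5 falls among the members did not depend on how the arrays were scaled. ESPL1 on both probe sets, CDC20, STAG1 on 202294_at and SMC3 on 209259_s_at were called lower after quantile normalization, median centring and centring on spiked controls as well as deposited. Their smallest size under these scalings was -0.76 for SMC3 and -0.78 for STAG1, both under median centring. Rises did depend on it, with 0 as deposited, 0 on spiked controls, 1 after quantile normalization (FZR1) and 4 under median centring (both RAD21 probe sets and 1 each of SMC3 and FZR1). Of all probe sets, 3.86%, 2.34%, 9.59% and 15.7% were called higher under these 4 scalings, so nothing particular to the members is read from their counts of rises.

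**Figure D5:**
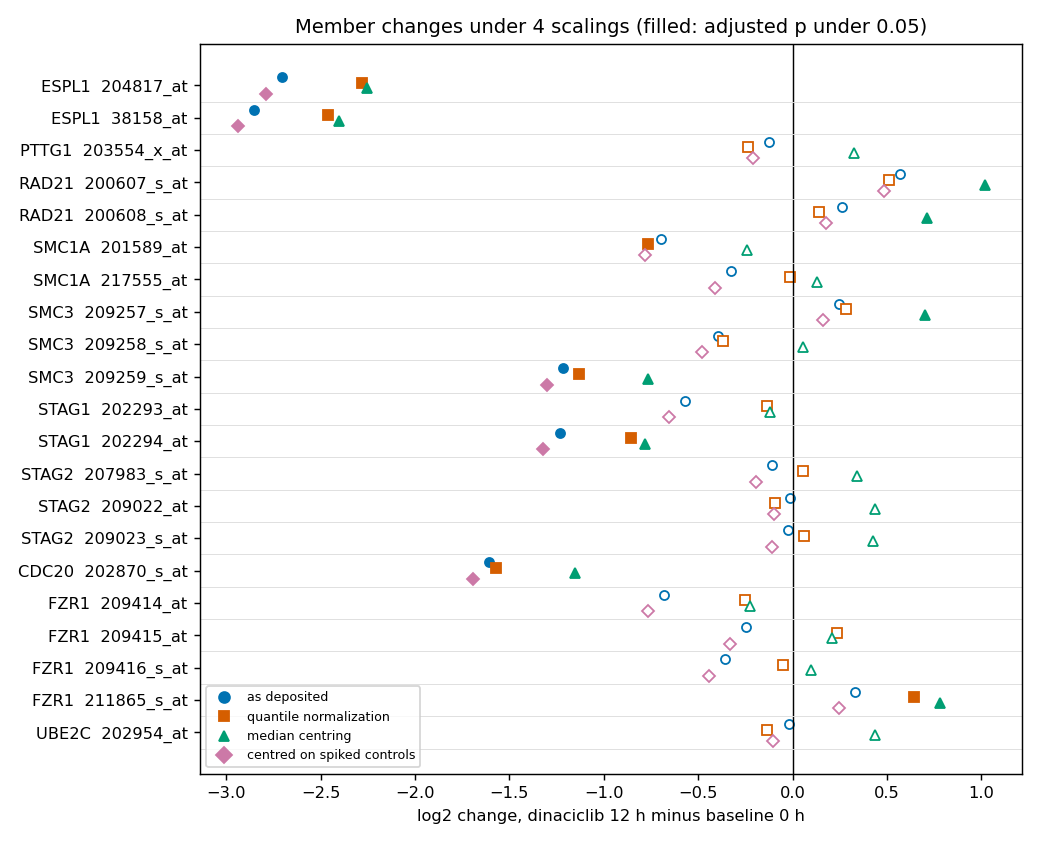
Log2 change (dinaciclib 12 h minus baseline 0 h) of the 21 member probe sets under 4 scalings, with filled markers for an adjusted p under 0.05. Both ESPL1 probe sets, CDC20, STAG1 202294_at and SMC3 209259_s_at are filled and negative under all 4, while median centring places 4 probe sets at filled positive values of 0.70 to 1.02.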

How the data were processed

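The authors deposited 1 linear intensity per probe set and array, in a table of 22277 probe sets and 6 samples. The method behind these intensities, its background correction and its scaling are not given in the sources used here. The array medians differ, and whether the arrays were scaled before deposit is unknown. Every column of per-sample values in the table was used.

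Probe sets were named by gene identifier from the platform annotation and a RefSeq gene table of GRCh38.p14, used for names only, and all 21 member probe sets matched. After 62 control probe sets were left out, 19064 of 22215 had 1 gene, 1043 several and 2108 none named. The test used R 4.3.3 and limma 3.58.1 (lmFit, then eBayes) on log2(value + 1) of the deposited values, two-sided, with group as its only term. Adjusted p-values are Benjamini-Hochberg values over all 22215 probe sets. Fold changes are on that scale and understate changes of dim genes. With 3 against 3 samples an exact permutation test cannot go below p = 0.1, so none was used for single probe sets. The within-array differences were fitted likewise over every probe set of a gene against its brightest one.

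Alternatives were quantile normalization, a replicate block, centring on array medians, centring on the 45 spiked controls, letter or number as a covariate, the numbered samples alone, log2(value + 16), no probe sets under the 40th percentile of mean signal, 1 probe set per gene, a variance trend with robust estimation, and each sample left out in turn. Centring on hybridization controls alone and the 6 pairs of members were added after seeing the data. Named were all member probe sets, in each list the 3 lowest and 3 highest changes past the threshold, any gene in a count of 5 or fewer, the 3 best correlates of the leading probe set, and marker genes; further list genes named were chosen after their values were seen. The members and lists were chosen with earlier results of these data known. Log2 values correlated at 0.963 to 0.972 within groups and 0.937 to 0.947 between them. The number of arrays limits precision. The steps were tested on simulated data. Figures used matplotlib 3.10.9 in Python 3.11.15.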

Additional observations from a re-analysis of the deposited data

How the results depend on the processing

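Member probe sets called lower numbered 5 as deposited, and 0 with the replicate block, 3 within the numbered samples (ESPL1 and CDC20), 3 with 1 probe set per gene, where fewer member probe sets are tested, 4 to 5 with a sample left out, and 5 to 7 under all other settings. Those called higher numbered 0, but 4 under median centring and 1 each after quantile normalization, with log2(value + 16), without dim probe sets and with trend and robust estimation, and 0 with any sample left out. Over all probe sets, 2971 were lower and 857 higher as deposited. The lower count was 1938 under median centring, 1721 within the numbered samples and 1245 to 2684 with a sample left out. The higher count was 2130 after quantile normalization, 3487 under median centring, 520 on spiked controls, 449 within the numbered samples, 538 with 1 probe set per gene, 1291 with trend and robust estimation and 362 to 629 with a sample left out. List genes called lower numbered 19, but 9 under median centring, 12 on spiked controls, 7 within the numbered samples and 8 to 18 with a sample left out. List genes called higher numbered 1, but 3 after quantile normalization, 10 under median centring, 2 each with log2(value + 16), without dim probe sets and with trend and robust estimation, 0 on spiked controls and within the numbered samples, and 0 to 1 with a sample left out. The causes of these shifts were not tested. The replicate block leaves 1 residual degree of freedom in limma, and its counts were 0 lower and 0 higher for members, lists and all probe sets, against 7 and 0, 26 and 1, and 5210 and 1589 at an unadjusted p under 0.05. F and E each form a block of their own in that fit and add nothing to the estimated change. The block changes therefore equal those of the numbered samples alone, such as -3.19 for ESPL1 38158_at and -1.82 for CDC20. It is not a paired test of all 6 samples. Deviations from the group means correlated at 0.0826 for the samples numbered 4, 0.0765 for those numbered 5 and 0.169 for F and E, and at 0.0376 and -0.00366 across numbers, so the samples were not treated as pairs, although pairing was not disproved. Signs turned for probe sets that were not called. Median centring gave 0.33 for PTTG1, 0.13 for SMC1A 217555_at, 0.055 for SMC3 209258_s_at, 0.34, 0.44 and 0.43 for STAG2, 0.21 and 0.10 for FZR1 209415_at and 209416_s_at and 0.43 for UBE2C. Quantile normalization gave 0.053 and 0.058 for STAG2 207983_s_at and 209023_s_at and 0.24 for FZR1 209415_at. With a sample left out, STAG2 209022_at ranged from -0.10 to 0.039, STAG2 209023_s_at from -0.12 to 0.088 and UBE2C from -0.11 to 0.062, the difference of FZR1 209416_s_at to the brightest probe set from -0.48 to 0.13 and that of STAG2 209023_s_at from -0.084 to 0.073. With promoter windows of the 250 bases before the start alone, the same member genes held each motif, and 13.3%, 32.0% and 4.69% of all windows held the TTTGAA motif, the CCAAT motif and both. Of the 13 member windows, 4, 7 and 2 did.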

Other observations

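A regulator of the cohesin ring had probe sets called in opposite directions, noticed after its values were seen. PDS5A, which binds the ring and helps to open or keep it closed, has 4 probe sets. A pair of them fell, with log2 changes of -0.79 for 212138_at, which averaged 923 ± 67.7 after dinaciclib and 1606 ± 250 at baseline (SD, n = 3 each; SE 0.21, limma adjusted p = 0.0467), and -1.58 for 212140_at (SE 0.20, adjusted p = 0.00596). The others rose, with log2 changes of 2.88 for 213983_s_at (SE 0.21, adjusted p = 0.00293) and 2.71 for 213984_at (SE 0.23, adjusted p = 0.00307). PPP2R5C, a regulatory subunit of protein phosphatase 2A, likewise had 1 probe set lower (-1.67, adjusted p = 0.00452) and 1 higher (1.75, adjusted p = 0.00502), while its brightest did not pass (-0.36). Of the list genes measured, these 2 had calls in both directions, and which transcripts their probe sets read was not analysed here.

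Over the 6 samples, the log2 values of ESPL1 probe set 38158_at followed those of S100PBP, HSPBAP1 and PLK4, a centriole kinase, most closely (Pearson correlations of 0.9997, 0.9997 and 0.9996). The log2 changes of these 3 were -2.35, -1.51 and -1.77. The 6 points share the difference between groups, and 259 probe sets correlated above 0.99 with ESPL1, so the likeness is not particular to these genes.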
